A study of Mus musculus with 6 samples.

Results

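The GADD45 and BTG/TOB genes encode small proteins that restrain cell division, and 8 of them were followed in cultured mouse erythroblasts given the Plek2 inhibitor NUP-17d. The GADD45 family is represented by Gadd45a, Gadd45b and Gadd45g, and the BTG/TOB family by Btg1, Btg2, Btg3, Tob1 and Tob2. The genes were taken by symbol from 17060 genes listed in the deposited tables, and all 8 were among the 12306 genes that passed the filter on low counts. They were chosen by their composition-corrected read counts in the same contrast of NUP-17d with DMSO, so that difference is described here for each of them and is not tested. Lineage-negative BM cells from WT mice, of an age not given in the sources used here, were cultured in an EPO induction medium, in which progenitors divide and mature into erythroblasts. The DMSO group (NC, 3 cultures) received the vehicle and the NUP-17d group (17d, 3 cultures) received 10 μM NUP-17d, each for 48 hours. No sample lacked EPO, and no source says whether the 3 cultures of a condition came from separate mice, so the spread between them may be technical.

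GADD45 proteins are induced by DNA damage and other stress. They bind PCNA, the Cdk1 and cyclin B1 kinase complex and the kinase Map3k4, and so act on DNA repair, on entry into mitosis and on the p38 and JNK stress kinases. BTG and TOB proteins share a domain that binds the Cnot7 and Cnot8 deadenylases of the CCR4-NOT complex, which shorten the poly(A) tails of mRNAs, and Btg1 and Btg2 also bind the arginine methyltransferase Prmt1. In the erythroid lineage, cells divide a limited number of times and leave the cell cycle before they lose the nucleus, and genes of both families are known for slowing division in blood cells.

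Each library held 20076409 to 20419018 estimated reads. The cultures matched their label, since all 15 erythroid markers were detected and the hemoglobin gene Hbb-bs had 77814 CPM in DMSO, but markers of neutrophil precursors were present as well, with Mpo at 1756 CPM in DMSO. CPM is the read count relative to library size, scaled by edgeR's TMM method, which corrects for the composition of the library. Hemoglobin genes took 18.3% to 20.3% of the reads with DMSO and 11.8% to 13.1% with NUP-17d. Without the correction, the median log2 fold change of all tested genes moves from 0.014 to 0.28, and the part of hemoglobin in this shift was not tested. Every fold change is of NUP-17d against DMSO and carries the standard error (SE) of edgeR's fit across all genes, which has 3 cultures per condition.

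The families differed widely in level. FPKM, the reads of a gene per kilobase of transcript, scaled to the size of the library, allows levels of different genes to be compared within a condition. In DMSO, Gadd45a stood first at 1084 ± 17.2 FPKM (SD, n = 3), and 28 genes of the whole table had a higher mean. Btg2 followed at 139 ± 1.75 FPKM. Btg3 at 37.5 ± 0.539 and Btg1 at 36.2 ± 1.81 came next, and the ranges of these neighbours overlapped. Tob2 at 19.3 ± 0.683 and Tob1 at 10.5 ± 0.720 were separate from each other and from the genes around them. Gadd45b at 6.97 ± 0.563 and Gadd45g at 6.13 ± 0.254 were lowest, and their ranges overlapped. With NUP-17d the order was the same except that Btg1 (37.9 ± 0.737 FPKM) and Btg3 (37.2 ± 1.44 FPKM) changed places, still with overlapping ranges, and that Gadd45b (10.1 ± 0.241) now lay above Gadd45g (7.97 ± 0.758) without overlap. Btg4, a family member known from oocytes, had 2 reads over all 6 libraries and was not followed. Gadd45a was the main GADD45 transcript of these cells and Btg2 the main BTG/TOB transcript in either condition.

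Gadd45a, the damage-inducible member that acts on the G2/M step, was at 0.476 of its DMSO level with NUP-17d. Its estimated read counts were 26638, 26757 and 27241 in DMSO cultures 1, 2 and 3 and 14937, 15104 and 15669 in NUP-17d cultures 1, 2 and 3. On the CPM scale these were 1472, 1411 and 1463 with DMSO and 675, 677 and 718 with NUP-17d. The 3 treated cultures all lay far below the 3 control cultures, at 46.6% to 49.6% of the control mean. The log2 fold change was -1.07 (SE 0.036), and 104 of the tested genes had a larger one in size. Gadd45a (Entrez gene 13197) lies on chromosome 6 at positions 67035096 to 67037407 (GRCm38, the build called mm10 in the submitters' processing notes) and has 4 exons.

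Btg2, a p53-inducible member that slows the passage from G1 to S phase, was lower by nearly as much. DMSO cultures 1, 2 and 3 had 496, 468 and 467 CPM, and NUP-17d cultures 1, 2 and 3 had 249, 242 and 248 CPM. The groups did not overlap, and the treated cultures sat at 50.6% to 52.2% of the control mean. The log2 fold change was -0.95 (SE 0.035). Btg2 (Entrez gene 12227) lies on chromosome 1 at positions 134074865 to 134079155 and has 2 exons.

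**Figure D1:**
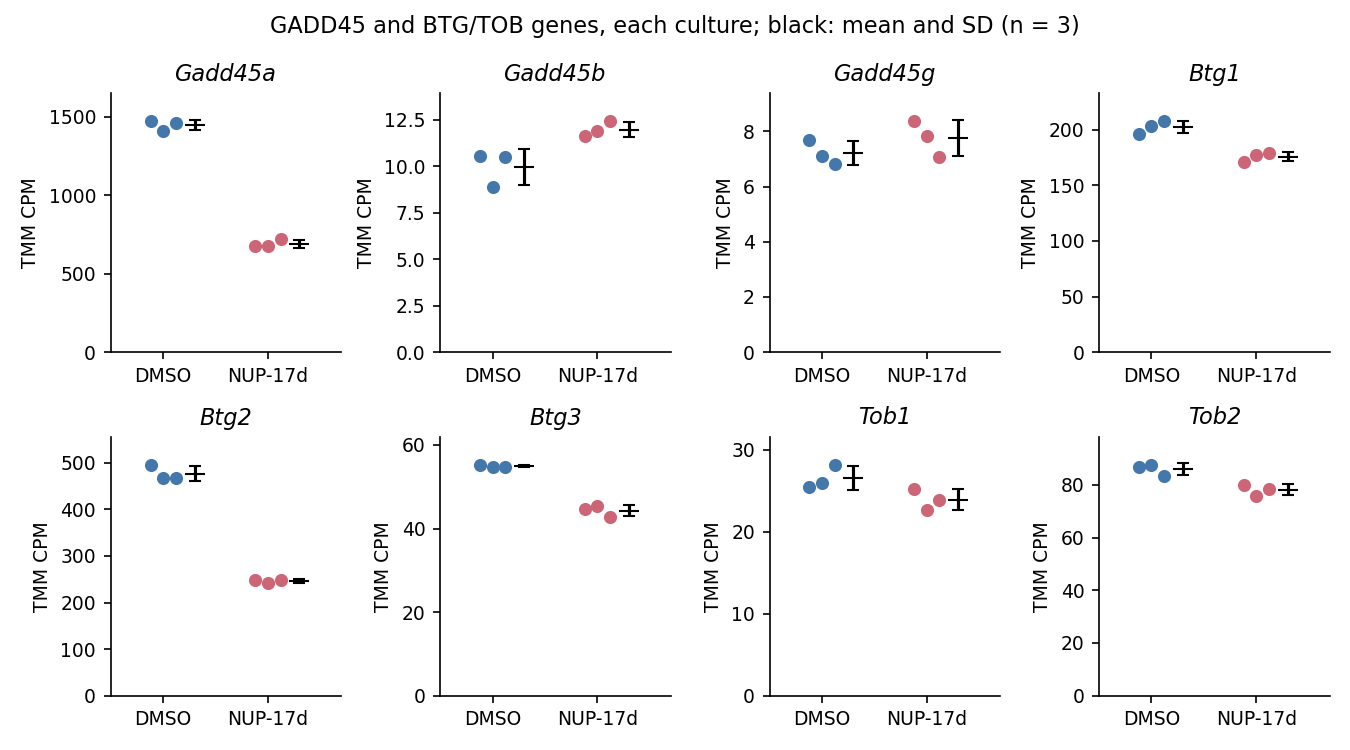
Level of each of the 8 genes in every culture, in TMM-scaled CPM on the y axis with a scale of its own for each gene, for DMSO (blue) and NUP-17d (red), with the mean and SD of 3 cultures in black. Gadd45a and Btg2 are the genes whose treated cultures lie near the middle of the axis, at 675 to 718 and 242 to 249 CPM, while the other 6 genes differ by smaller amounts.

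The other BTG/TOB genes were lower by small amounts. Btg1, a close relative of Btg2 that is known for keeping lymphocytes quiescent, had 196, 204 and 208 CPM in the DMSO cultures and 171, 177 and 179 CPM in the NUP-17d cultures. The groups did not overlap, and the log2 fold change was -0.20 (SE 0.036). Btg3, which inhibits the cell cycle factor E2F1, had 55.3, 54.8 and 54.8 CPM with DMSO and 44.7, 45.4 and 42.8 CPM with NUP-17d (log2 fold change -0.31, SE 0.043). The control cultures of Btg3 lay closer together than those of any other member, with a coefficient of variation of 0.503%. Counting reads alone would give about 3.16%, and its treated cultures had 3.11%, so no tighter control of Btg3 is read from this. Tob2 had 86.8, 87.6 and 83.3 CPM with DMSO and 79.9, 75.8 and 78.5 CPM with NUP-17d (log2 fold change -0.14, SE 0.040). Tob1, which binds SMAD proteins and brings the deadenylases to target mRNAs, had 25.4, 25.9 and 28.2 CPM with DMSO and 25.1, 22.7 and 23.9 CPM with NUP-17d. The highest treated culture of Tob1 and its lowest control culture were separated by less than 1 CPM, and its log2 fold change was -0.15 (SE 0.059).

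All members had higher values without the composition correction, and Btg1, Tob1 and Tob2 changed sign. With libraries scaled by their totals only, Btg1 (0.062), Tob1 (0.12) and Tob2 (0.13) had positive log2 fold changes, Btg3 was close to 0 (-0.043), and Gadd45a (-0.80) and Btg2 (-0.69) stayed negative. A change of scaling shifts all genes alike, so values relative to the median of all tested genes are nearly the same under both by construction. Relative to that median, with TMM, Btg1 was at -0.22, Btg3 at -0.32, Tob1 at -0.16 and Tob2 at -0.15. The raw counts show how little Btg1 moved in reads, with 3555, 3861 and 3865 in the DMSO libraries and 3787, 3952 and 3902 in the NUP-17d libraries.

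Gadd45b was higher with NUP-17d, and Gadd45g differed by no more than its spread. Gadd45b, a target of NF-κB and TGF-β signaling that protects some cells from death, had 10.6, 8.86 and 10.5 CPM in the DMSO cultures and 11.6, 11.9 and 12.4 CPM in the NUP-17d cultures. The groups did not overlap, the log2 fold change was 0.27 (SE 0.085), and DMSO culture 2 was the lowest of all 6. Without that culture the log2 fold change was 0.19. With all cultures and library totals only, Gadd45b had 0.53. Gadd45g had 7.68, 7.12 and 6.82 CPM with DMSO and 8.36, 7.85 and 7.06 CPM with NUP-17d. These groups overlapped, and the log2 fold change of 0.11 was about the size of its SE (0.10). It ranged from 0.049 without NUP-17d culture 1 to 0.17 without NUP-17d culture 3, and was 0.37 with library totals only, where Gadd45g passed as higher. Both genes rest on few reads, 168 to 271 for Gadd45b and 127 to 185 for Gadd45g per library, so their values are the least precise of the 8.

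**Figure D2:**
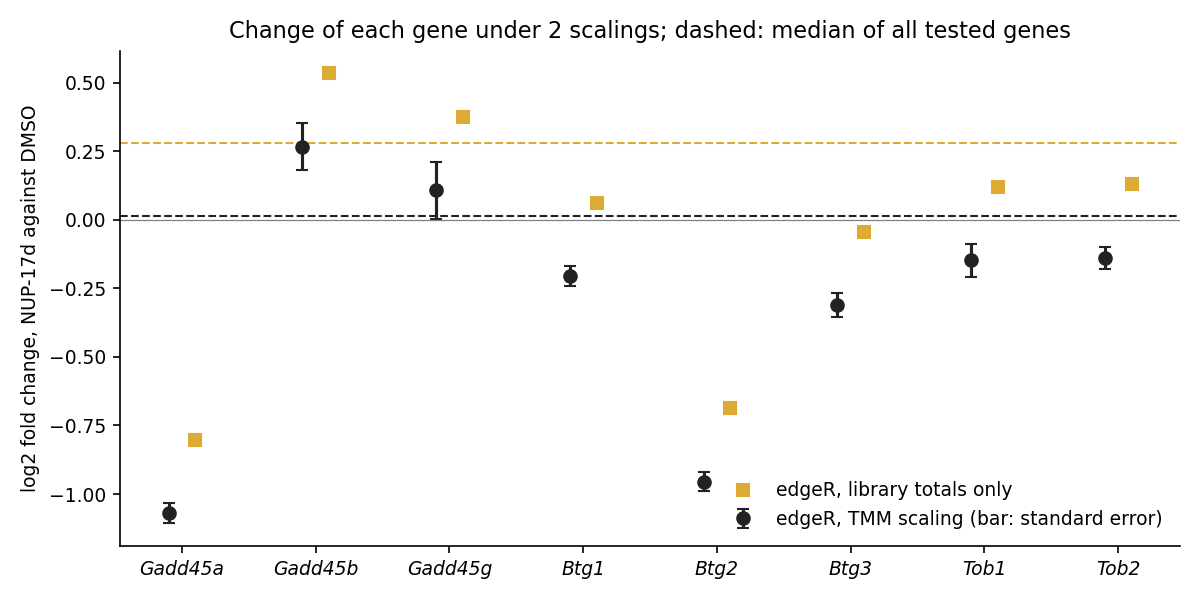
Log2 fold change of each of the 8 genes (x axis) with TMM scaling (black, bars show the SE) and with library totals only (yellow), with the median of all tested genes under each scaling as a dashed line. Gadd45a and Btg2 lie below both medians at -1.07 and -0.95 with TMM. Gadd45b lies above the median of the same scaling in either case, whereas Btg1, Tob1 and Tob2 change sign with the scaling.

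In edgeR's quasi-likelihood test across all 12306 genes, 6 of the 8 members passed an adjusted p of 0.05, where 35.3% of all tested genes passed. The 5 that passed as lower were Gadd45a, Btg1, Btg2, Btg3 and Tob2, where 18.9% of all tested genes did, and Gadd45b passed as higher, where 16.4% did. Tob1 and Gadd45g did not pass. With library totals only, 5 members passed, 3 as higher (Gadd45b, Gadd45g and Tob2) and 2 as lower (Gadd45a and Btg2). DESeq2 gave 0 higher, without Gadd45b, and 5 lower. Because this contrast chose the members, nothing is read from these counts. The CPM ranges of the groups did not overlap in 7 members, where they did not overlap in 46% of all tested genes. In 6 of these 7 the treated cultures were lower, as in 23.2% of all tested genes, and in 1 they were higher, as in 22.8%. The median log2 fold change of the 8 genes was -0.18, against 0.014 over all genes tested.

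**Figure D3:**
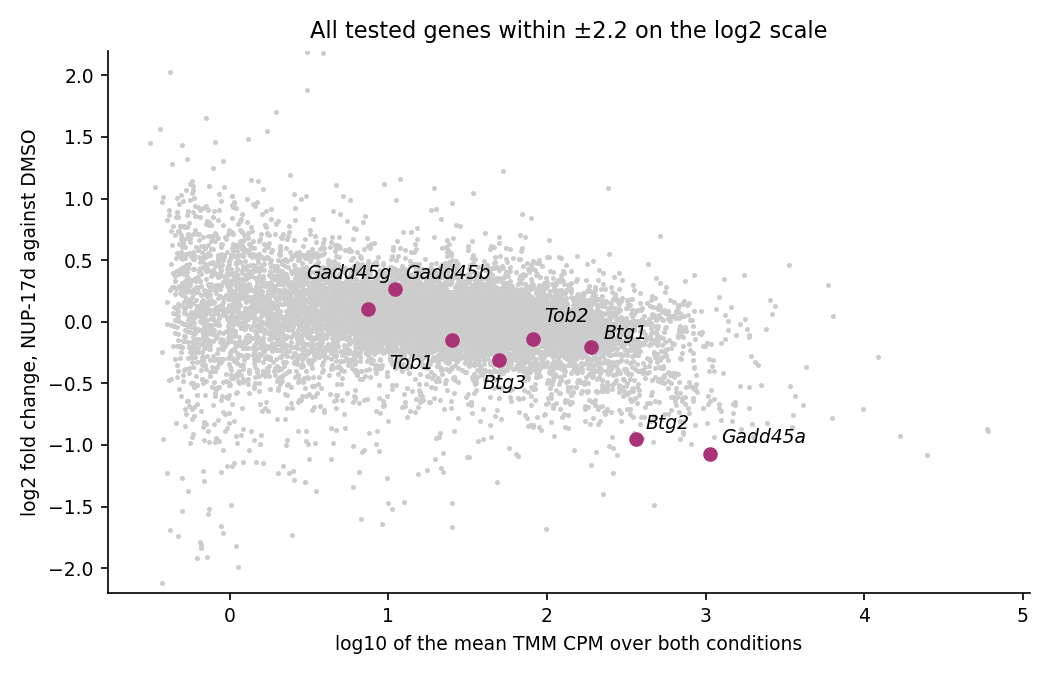
Log2 fold change (y axis) of all tested genes against their mean level, log10 of TMM CPM, on the x axis, with the 8 genes in purple; 2 genes lie outside the plotted range. Gadd45a and Btg2 sit at the lower edge of the cloud for genes of their level, at -1.07 and -0.95, and the other members lie within it.

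Ratios between members in the same library do not depend on how libraries are scaled. Gadd45a FPKM was 149, 170 and 149 times that of Gadd45b in DMSO cultures 1, 2 and 3 and 62.1, 60.9 and 61.8 times that of Gadd45b in NUP-17d cultures 1, 2 and 3. The ratio of Gadd45a to Gadd45g was 169 to 189 with DMSO and 71.0 to 89.5 with NUP-17d. Gadd45a still made up nearly all of the summed FPKM of its family, 98.8% ± 0.0511 (SD, n = 3) in control cultures and 97.2% ± 0.141 in treated ones. In the BTG/TOB family the share of Btg2 was 58.5%, 56.9% and 56.6% in the DMSO cultures and 44.8%, 44.2% and 44.8% in the NUP-17d cultures. The ratio of Btg2 to Btg1 was 3.67 to 4.12 with DMSO and 2.23 to 2.37 with NUP-17d, without overlap. The ratio of Tob1 to Tob2, in contrast, was 0.543 ± 0.0443 with DMSO and 0.538 ± 0.0135 with NUP-17d, with overlapping ranges. Summed FPKM divided by the TMM factor was 1203 ± 27.7 with DMSO and 585 ± 19.4 with NUP-17d for the GADD45 family, and 266 ± 4.32 and 177 ± 1.45 for the BTG/TOB family.

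**Figure D4:**
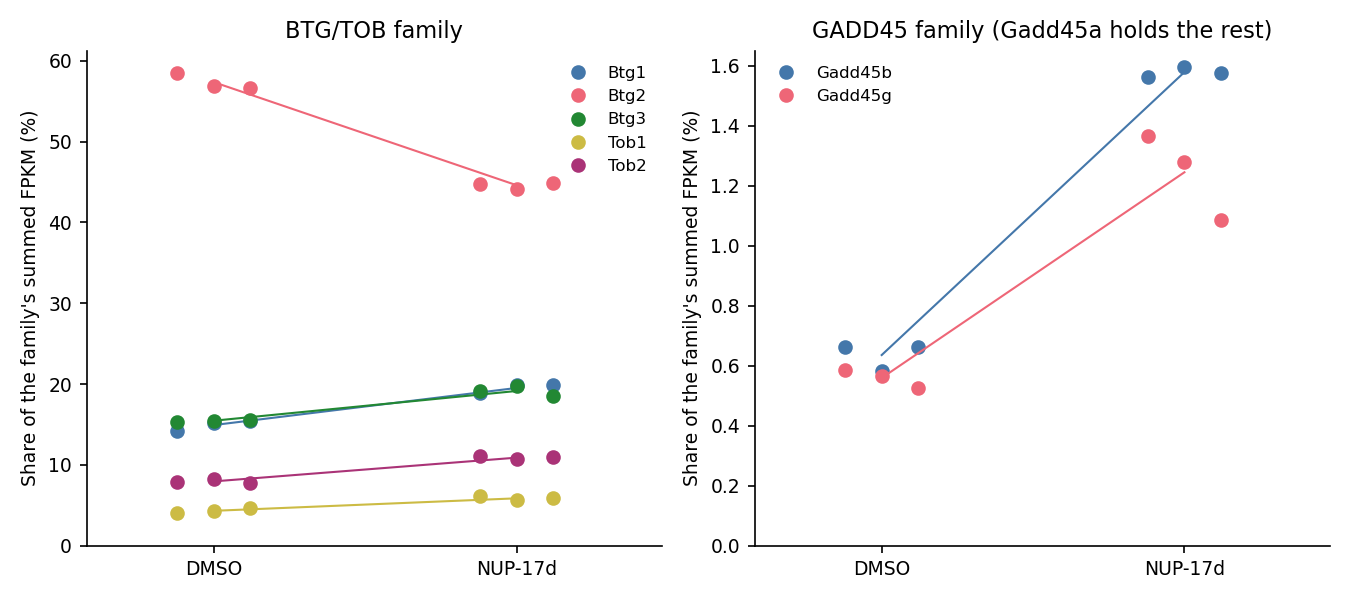
Share of each gene in the summed FPKM of its family (y axis, percent) in each DMSO and NUP-17d culture, with lines joining the group means, for the BTG/TOB family (left) and for the minor members of the GADD45 family (right). The share of Btg2 is 56.6% to 58.5% with DMSO and 44.2% to 44.8% with NUP-17d, and the shares of Gadd45b and Gadd45g are larger in every treated culture than in any control culture. Because Gadd45a holds nearly all of the family's sum, these shares depend mostly on Gadd45a, and the CPM ranges of Gadd45g overlapped between conditions.

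Most of the genes have few exons. Gadd45a, Gadd45b and Gadd45g have 4 exons each and span 1801 to 2312 bases of the genome. Btg1, Btg2, Tob1 and Tob2 have 2 exons each, and Btg3 has 5, against a median of 7 over 19285 genes with 1 transcript each, of which 28.8% have 4 or fewer exons. The pentamer ATTTA, the core of AU-rich elements that mark many short-lived mRNAs, was counted in the 3′ UTR of the GENCODE transcript with the RefSeq accession of the deposited tables. That transcript can differ in length from the deposited one, with 2743 against 3083 bases for Btg2 and 4151 against 3994 for Tob2. For Btg3, which has 2 accessions, the longer transcript was used. Btg1 held 11, Btg2 5, Btg3 and Tob2 4 each, Tob1 3 and Gadd45a 2, against a median of 1 over all genes, while Gadd45b and Gadd45g held 0. At least 2 were found in 43.4% of transcripts and at least 11 in 4.33%. These counts are not adjusted for length, and the 3′ UTRs of Btg1 (4166 bases), Tob2 (2457 bases) and Btg2 (2199 bases) are longer than the median of 848 bases. A pentamer is a match of letters and not evidence of a working element.

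The promoters of Btg2 and Gadd45a are shown because these genes had the largest differences, and those of Gadd45b and Gadd45g because they are relatives of Gadd45a that were not lower. Each is the 250 bases before the annotated start, 5′ to 3′ on the strand of the gene (RefSeq, GRCm38.p6), with matches to the motifs searched in capitals.
Btg2 (chr1:134079156-134079405, strand -): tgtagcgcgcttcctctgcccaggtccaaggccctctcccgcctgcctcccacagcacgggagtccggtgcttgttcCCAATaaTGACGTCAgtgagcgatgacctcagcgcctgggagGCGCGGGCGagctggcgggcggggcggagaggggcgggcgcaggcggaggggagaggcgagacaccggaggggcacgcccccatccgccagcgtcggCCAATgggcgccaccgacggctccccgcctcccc
Gadd45a (chr6:67037408-67037657, strand -): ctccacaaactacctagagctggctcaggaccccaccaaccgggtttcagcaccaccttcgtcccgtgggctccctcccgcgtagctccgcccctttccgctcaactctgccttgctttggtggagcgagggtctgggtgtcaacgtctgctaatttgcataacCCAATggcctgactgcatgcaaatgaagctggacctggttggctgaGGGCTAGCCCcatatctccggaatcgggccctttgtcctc
Gadd45b (chr10:80929841-80930090, strand +): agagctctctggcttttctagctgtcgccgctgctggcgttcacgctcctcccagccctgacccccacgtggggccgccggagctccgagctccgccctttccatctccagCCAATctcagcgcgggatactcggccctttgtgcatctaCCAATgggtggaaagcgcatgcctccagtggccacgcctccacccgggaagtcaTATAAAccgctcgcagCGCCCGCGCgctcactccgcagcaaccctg
Gadd45g (chr13:51846425-51846674, strand +): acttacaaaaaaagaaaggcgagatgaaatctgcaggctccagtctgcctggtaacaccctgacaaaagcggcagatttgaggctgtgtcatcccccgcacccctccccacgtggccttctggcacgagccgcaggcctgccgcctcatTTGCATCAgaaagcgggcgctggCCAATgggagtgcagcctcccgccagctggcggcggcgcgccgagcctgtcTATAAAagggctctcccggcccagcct
The motifs were searched on both strands. They were GTAAACA for FoxO factors, AGATAA for GATA factors, TGACGTCA for CREB and ATF factors, TGATGCAA for ATF4, GCGNGGGCG for Egr1, CCAAT for NF-Y, TATAAA for the TATA box, and the p53 half-site. Btg2 held TGACGTCA, which is found in 1.55% of 32851 promoters of the same length, 166 bases before the start. It also held GCGNGGGCG (4.7% of promoters) and 2 CCAAT boxes. CCAAT was in 33.8% of promoters and in those of all members but Tob2. Gadd45a held 1 CCAAT box and 1 p53 half-site (7.13% of promoters), 40 bases before the start. Gadd45b and Gadd45g each held TATAAA, found in 12.4% of promoters and also in those of Btg1 and Tob1. Gadd45a, Btg2, Btg3 and Tob2 lacked it in this window. Gadd45g held TGATGCAA (0.791% of promoters), Gadd45b held GCGNGGGCG and Btg1 held GTAAACA (3.17%). AGATAA was in none of the 8 genes' windows, and 9.99% of promoters held it. These matches describe letters only.

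Gadd45a had the largest difference of the 8, so the genes whose level followed it most closely over the 6 cultures were listed. Among 9755 other genes that averaged 100 reads or more, the highest Pearson r of log2 CPM included those of Nt5c3 (0.99966), Apol11b (0.99960), Arl4a (0.99959) and Serinc1 (0.99958). Nt5c3 encodes the pyrimidine 5′-nucleotidase of red cells. Nt5c3 had 621 CPM with DMSO and 316 with NUP-17d. The 6 points fall into the 2 conditions, so r mostly reflects the difference between conditions, and 369 genes had r above 0.99.

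The erythroid markers were lower in the same cultures. All 15 passed as lower in edgeR's test, where 18.9% of all genes did. Their median log2 fold change was -0.76, and their summed level was 218860 to 252780 CPM with DMSO and 121030 to 135390 CPM with NUP-17d (2-sided exact permutation test, p = 0.1, the smallest that 3 cultures against 3 allow). The 11 neutrophil markers summed to 4126 to 4289 CPM with DMSO and 4232 to 4514 with NUP-17d (exact permutation p = 0.2), with 3 higher and 2 lower. The 10 macrophage markers summed to 654 to 716 and 706 to 780 CPM (exact permutation p = 0.3), with 3 higher and 3 lower. The 8 megakaryocyte markers summed to 471 to 521 and 548 to 567 CPM (exact permutation p = 0.1), with 6 higher and 0 lower. Over all tested genes, 16.4% passed as higher. Mast cell and basophil markers summed to 208 to 225 and 186 to 192 CPM (exact permutation p = 0.1), with 1 higher, 2 lower, and Mcpt4 and Tpsab1 without reads. B cell markers summed to 14.7 to 16.6 and 13.3 to 14.03 CPM (exact permutation p = 0.1) and T and NK cell markers to 17.7 to 19.2 and 17.2 to 17.8 CPM (exact permutation p = 0.2). The part of these markers' cells in the values of the 8 genes was not tested. In RNA from whole cultures, fewer cells of a type and less RNA per cell cannot be told apart.

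Genes related to the 2 families were followed in 6 lists, tested in the same fit across all genes. The lists were chosen with earlier results of these data known, so their counts and p-values may not be independent of those results. Of 18 genes for deadenylases, proteins associated with them and poly(A)-binding proteins, 7 fell, 1 rose and 10 did not pass. Over all tested genes, 18.9% passed as lower and 16.4% as higher. The median log2 fold change of the 18 genes was -0.061, against 0.014 over all genes. Pabpc1, the main cytoplasmic poly(A)-binding protein, fell from 13404 to 10971 CPM (log2 fold change -0.29, SE 0.043, adjusted p = 6.6e-06 from edgeR), and Pabpc4 (-0.23) and Cnot4 (-0.19) fell as well. With library totals only none of these 3 passed, at -0.021, 0.039 and 0.077. The deadenylase Cnot6l rose by a log2 fold change of 0.14 (SE 0.048, adjusted p = 0.0222 from edgeR), a call lost with DESeq2 and without DMSO culture 1 or 3 or NUP-17d culture 1 or 2. Cnot7 and Cnot8, the direct partners, had log2 fold changes of -0.037 (SE 0.047) and 0.076 (SE 0.043) and did not pass; these 2 genes were chosen after their values were seen. With library totals only, 15 of the 18 passed as higher and 0 as lower, and the call for this list rests on the scaling. DESeq2 called 5 lower and 0 higher, and without DMSO culture 3 edgeR did the same.

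Among genes for the other proteins that bind BTG or TOB, 3 of the 9 tested rose and 3 fell. Over all tested genes, 16.4% passed as higher and 18.9% as lower. Cpeb4, which controls translation through the 3′ ends of mRNAs and is known for a part in erythroid maturation, fell from 2599 to 1362 CPM (log2 fold change -0.93, SE 0.039, adjusted p = 3.21e-16 from edgeR). Cpeb3, a partner of Tob1, fell from 24.4 to 10.6 CPM (-1.20, SE 0.078, adjusted p = 1.62e-12 from edgeR). Cpeb2 rose, from 14.2 to 18.3 CPM (0.36, SE 0.074, adjusted p = 0.000351 from edgeR). Both falls and the rise kept their sign with library totals only, at -0.66, -0.94 and 0.63, where 7 genes passed as higher and 2 as lower. Without NUP-17d culture 2, 3 of the 9 passed, 1 higher and 2 lower. Hoxb9 and Cpeb1 had too few reads to test.

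Of 10 genes for proteins that bind GADD45 proteins, 6 fell, 0 rose and 4 did not pass. Over all tested genes, 18.9% passed as lower and 16.4% as higher. The median log2 fold change of the 10 genes was -0.20. Npm1, the nucleolar chaperone, had a log2 fold change of -0.26 (SE 0.033, adjusted p = 4.89e-07 from edgeR), the mitotic kinase Aurka -0.22 and Ccnb1, which encodes cyclin B1, also -0.22. With library totals only these 3 had values just above 0 (0.0051, 0.044 and 0.050), and 4 of the 10 passed as higher and 0 as lower. In the stress kinase list, 2 of 14 tested genes rose, 1 fell and 11 did not pass, where 35.3% of all tested genes passed in either direction. Map2k3, a kinase that activates p38, fell from 180 to 147 CPM (log2 fold change -0.29, SE 0.034, adjusted p = 1.55e-07 from edgeR), and Mapkapk2 (0.16) and Mapkapk3 (0.12), kinases downstream of p38, rose. The call of Mapkapk3 was lost with DESeq2 and without DMSO culture 1 or 2 or NUP-17d culture 2. Map3k4, the direct target of GADD45 proteins, had 0.12 (SE 0.059) and did not pass; it was chosen after its values were seen. With library totals only, 10 of the 14 passed as higher, and Map2k3 (-0.019) did not pass.

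Of 13 tested genes for transcription factors known to induce members of the families, 7 fell, 3 rose and 3 did not pass. Over all tested genes, 18.9% passed as lower and 16.4% as higher. The median log2 fold change of the 13 genes was -0.10. Egr1, an immediate early factor, fell from 240 to 136 CPM (log2 fold change -0.83, SE 0.040, adjusted p = 6.12e-15 from edgeR), and Foxo3, a factor that drives erythroid maturation, fell by a log2 fold change of -0.39 (SE 0.047, adjusted p = 2.28e-07 from edgeR). Both kept their sign with library totals only (-0.56 and -0.12), and Foxo3 did not pass in either limma fit. Cebpa, a factor of the granulocyte lineage, rose from 107 to 135 CPM (0.33, SE 0.039, adjusted p = 1.56e-07 from edgeR), and Rela, a subunit of NF-κB, rose by 0.21 (SE 0.037, adjusted p = 5.19e-05 from edgeR). With totals only 7 passed as higher and 2 as lower. Of 15 genes for cyclins, kinases and Cdc25 phosphatases, 9 fell, 1 rose and 5 did not pass, with a median of -0.22. The shares over all tested genes were again 18.9% lower and 16.4% higher. The G1/S cyclins Ccne1 (-0.55, SE 0.050, adjusted p = 1.06e-09 from edgeR) and Ccne2 (-0.44) and the D-type cyclin Ccnd2 (-0.36) fell, and the kinase Cdk6 rose (0.11, SE 0.034, adjusted p = 0.0141 from edgeR), a call lost without DMSO culture 1. Ccne1, Ccne2 and Ccnd2 stayed below 0 with library totals only (-0.29, -0.17 and -0.093), though Ccnd2 did not pass there, and 4 genes of the list passed as higher and 2 as lower. Ccnb1 and Cdk1 stand in both this list and that of the GADD45 partners.

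**Figure D5:**
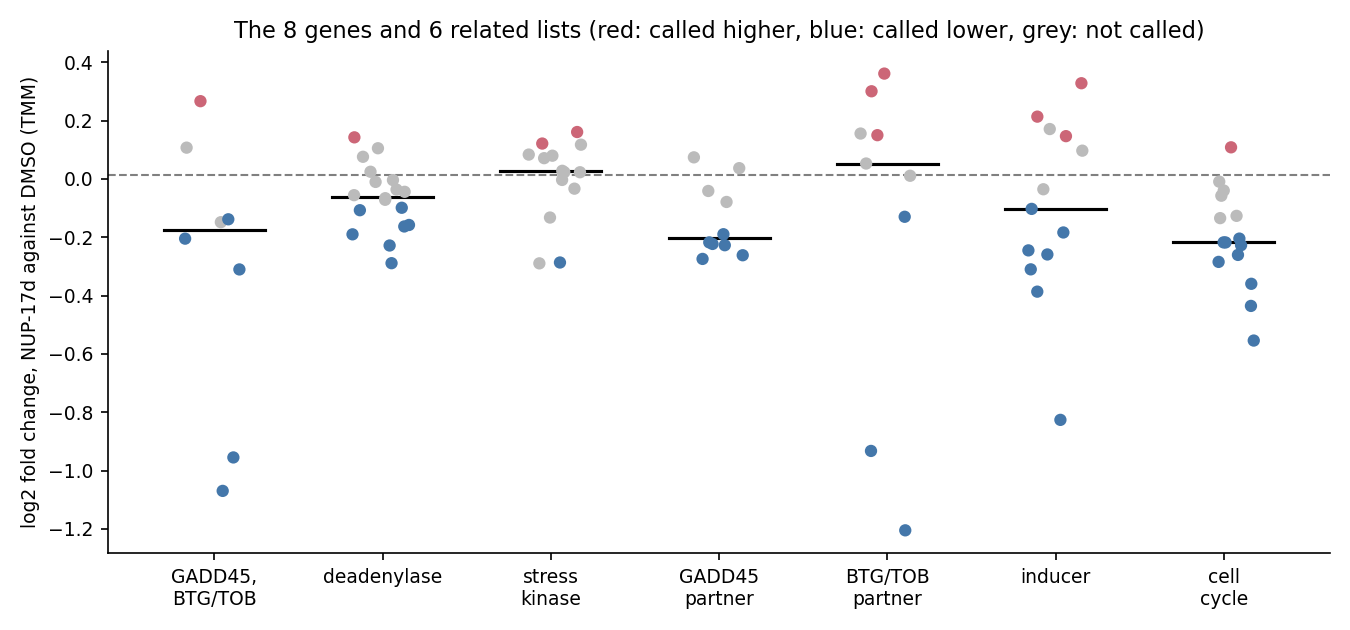
Log2 fold change with TMM scaling (y axis) of the 8 genes and of the tested genes of 6 related lists (x axis), red where edgeR called a gene higher, blue where lower and grey where neither, with list medians as black lines and the median of all tested genes dashed. The 8 genes have a median of -0.18, and the GADD45 partner and cell cycle lists have medians of -0.20 and -0.22.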

How the data were processed

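The authors deposited 1 table per culture, with an expected count per gene, which is their estimated number of reads and is not normalized, and an FPKM value, which the authors scaled by transcript length and library total without a correction for composition. The aligner and counting program are not given in the sources used here, and mm10 is the build in the submitters' processing notes. A gene without reads is left out of a table and was taken as 0. The study's text and the sample record describe different library kits, and neither states counting by strand.

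Expected counts were rounded, filtered with filterByExpr, scaled by TMM and tested with edgeR 4.0.16 in R 4.3.3 (quasi-likelihood, Benjamini-Hochberg over all genes, threshold 0.05). The library totals are given above. DESeq2 1.42.0, limma 3.58.1 on the log2 scale with 1 or 0.1 added to each FPKM value, library totals only, no filter, removal of hemoglobin genes, the culture number as a block, and each culture left out were alternatives. The main edgeR fit, DESeq2 and limma with 1 added were run on simulated data with 200 changed genes, and recovered 199, 193 and 194. The simulated libraries shared a common mean profile, so this could not check the choice of scaling. The members, gene lists and tests were chosen with earlier results of these data known. Named genes are the members, up to 3 called genes with the lowest p-values in each list, up to 2 called against a list's majority, and the 5 most like Gadd45a, of which 1 is not reported here.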

Additional observations from a re-analysis of the deposited data

How the results depend on the processing

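Scaling moved the results most. With library totals only, limma on log2(FPKM + 1) and limma on log2(FPKM + 0.1), the genes called numbered 9115, 9059 and 9038, against 4346 with TMM and 3713 to 4008 with a culture left out, and the median log2 fold change of the members became 0.090, 0.089 and 0.094, against -0.18. In the same order, Btg1 had 0.062, 0.065 and 0.067, Tob1 0.12, 0.11 and 0.12, and Tob2 0.13, 0.13 and 0.13. Called genes of the deadenylase list, 8 with TMM, became 15 with totals only, 13 with limma on log2(FPKM + 1), 5 with DESeq2 and 5 to 7 with a culture left out. Called stress kinase genes, 3 with TMM, became 10, 11 and 11, and called cell cycle genes went from 10 to 6 with totals only. Called BTG/TOB partners, 6 with all cultures, ranged from 3 to 6 with a culture left out. The log2 ratio of the summed markers became 0.074 for mast cells and basophils, 0.065 for B cells and 0.18 for T and NK cells with totals only, against -0.19, -0.20 and -0.088. These 2 kinds of alternative carry no correction for composition. Gadd45b lost its call with DESeq2 and without DMSO culture 2 or NUP-17d culture 3, and its log2 fold change was 0.19 to 0.31 over the 6 fits that left out a culture.

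Because no source says that a shared culture number marks a shared animal, the numbers were not taken as pairs. The deviations of same-numbered cultures from their group means had correlations of -0.064 to 0.013 across genes in 3 pairs. Blocking on that number gave 4543 called genes in all and 7 called members, with Tob1 added, and 8, 3, 6, 6, 10 and 10 genes of the deadenylase, stress kinase, GADD45 partner, BTG/TOB partner, inducer and cell cycle lists. Without the filter or the hemoglobin genes, 6 members were called. Gadd45b and Gadd45g, with at most 271 and 185 reads a library, are limited by depth.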
